A study of Homo sapiens with 12 samples.

Results

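Neuronal RNA-binding proteins are described here through 10 genes, MSI1, MSI2, ELAVL2, ELAVL3, ELAVL4, NOVA1, NOVA2, RBFOX1, RBFOX2 and QKI, of the 22411 genes that the array's transcript clusters name with 1 symbol. They were chosen by symbol, and each has 1 transcript cluster of its own in the gene-level table, so no choice among clusters had to be made. The same 10 symbols mark 359 of the 672085 exon and junction probe sets that carry 1 symbol. The change of MSI1 was known from these data when the genes were chosen, so the gene-level and exon-level differences of all 10 are given as a description, and no count among them supports a statement about the group.

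These proteins bind short sequence elements in RNA and set how a neuronal transcript is spliced, how long it lasts and how often it is translated. The families differ in the domain that holds the RNA: Musashi, ELAVL and RBFOX proteins use RNA recognition motifs, while NOVA proteins and Quaking use KH domains. Several are markers of a stage of the neural lineage, with Musashi 1 in stem and progenitor cells and the neuronal ELAVL proteins in cells that have left the cycle.

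SH-SY5Y, a human neuroblastoma line with a sympathoadrenal origin, was electroporated (1100 V, 50 ms) either with siRNA against MATR3 or with a negative control siRNA, and all cells grew in medium with 15% serum. MATR3 encodes Matrin 3, a nuclear matrix protein that binds RNA and DNA and takes part in splicing. Cells were harvested for total RNA at 48 h, and 100 ng was the input RNA for each Human Transcriptome array. The 3 MATR3 siRNA samples and 3 control siRNA samples were summarised at gene level and at exon level. The knockdown was transient, in 1 cell line, and the labels leave unsaid whether replicates were separate cultures. The p-values therefore measure only how these samples vary, and that variation may be technical.

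The cluster annotated with MATR3 and SNHG4 held log2 signals of 11.21, 10.53 and 10.52 after MATR3 siRNA, against 12.25, 11.75 and 11.68 after control siRNA, a mean of 45.4% of the control signal left. In both groups the array of replicate 1 stood apart from the rest: these arrays correlated at r = 0.9955 with each other and at 0.981 to 0.986 with the other 4 arrays, across clusters, which are not independent replicates. Array medians ran from 4.80 to 5.16. The 23 background probe sets had medians of 3.49 to 3.81 per array, and the brightest of them averaged 6.93. That brightest level lies above the 75th percentile of all cluster means, 6.87. Of 12 sympathoadrenal markers, 10 passed the filter on low signals, among them DBH, GATA3, HAND2 and ISL1, whereas TH, the enzyme that starts catecholamine synthesis, did not, at a mean of 4.86 after MATR3 siRNA and 4.66 after control siRNA. The glial markers OLIG2, MBP and AQP4 and the Schwann marker SOX10 also lay under the filter. GFAP, of glia, and S100B, of glia and Schwann cells, passed it at means of 4.99 and 5.31, both below the brightest background probe set.

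Each difference below is a log2 signal after MATR3 siRNA minus the log2 signal after control siRNA. It is given as the mean and SD of the 3 pairs that share a replicate number. That replicates 2 and 3 are matched by number was not shown, and the SDs, unlike the means, depend on it. Two-sided limma tests covered the 15209 clusters with 1 symbol whose mean lay at or above the median of all clusters, and all 10 genes were among them. With no block, 0 of the 10 passed a Benjamini-Hochberg adjusted p of 0.05, beside a percentage of 0 over all tested clusters (96 at an unadjusted p under 0.05). Once the array set (replicate 1 against replicates 2 and 3) was a block, 3 of the 10 passed, beside 3.48% of all tested clusters, or 2.08% higher and 1.41% lower. These were MSI1 and NOVA1, which rose, and ELAVL4, which fell, and the words rose and fell are used from here on for genes past that blocked test. With the replicate number as a block 0 of the 10 passed, beside 0.0526% of all clusters.

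**Figure D1:**
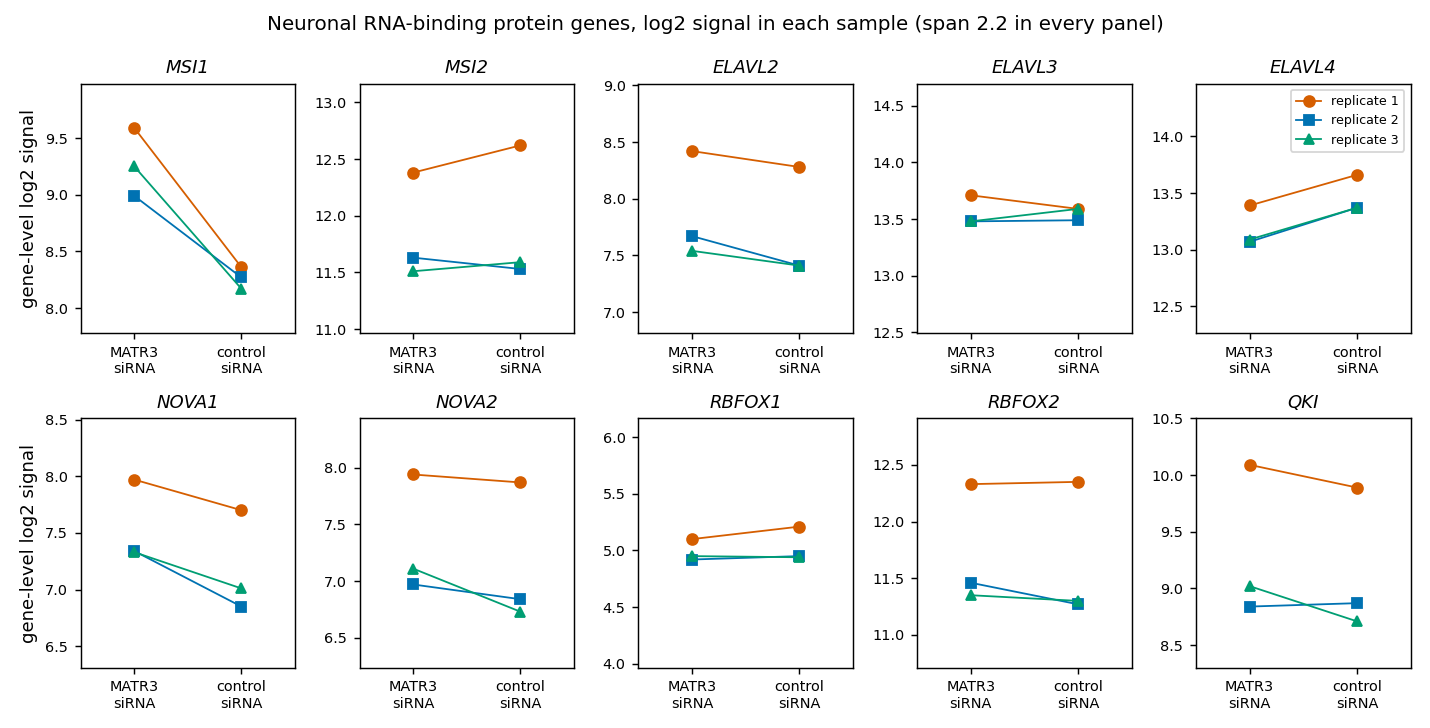
Gene-level log2 signal (vertical axis, the same span in every panel) of the 10 genes in the MATR3 siRNA samples (left) and the control siRNA samples (right), with lines joining samples of one replicate number. MSI1 is the panel in which the 3 MATR3 siRNA samples, 8.99 to 9.59, all lie above the 3 control samples, 8.17 to 8.36, and in most of the other panels the replicate 1 samples lie above the rest in both groups.

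Musashi proteins repress or activate translation of the mRNAs they bind, and Musashi 1 is best known for keeping neural stem cells in a progenitor state by lowering NUMB and so favouring Notch signalling. The MSI1 cluster (TC12002043.hg.1) gave 9.59, 8.99 and 9.25 log2 units after MATR3 siRNA, against 8.36, 8.27 and 8.17 after control siRNA. The groups did not overlap, and the lowest MATR3 siRNA sample stood 0.63 above the highest control sample. MATR3 siRNA samples averaged 9.28 ± 0.30, against 8.27 ± 0.10 in control samples (SD, n = 3 each). The 3 pairs differed by 1.23, 0.72 and 1.08, or 2.35-fold, 1.65-fold and 2.11-fold, with a mean of 1.01 ± 0.26 (SD, n = 3 pairs), a fold of 2.01. In limma blocked by array set the 95% interval ran from 0.76 to 1.26, with adjusted p = 0.0199. With no block adjusted p was 1, with the replicate block it was 0.0620, and with all 33782 kept clusters tested together it was 0.106. MSI1 ranked 6th from the top of the 15209 clusters by the mean of the pairs. Groups that do not overlap were found in 2.24% of tested clusters, 1.58% upward and 0.658% downward. An exact two-sided permutation test of MSI1 gave p = 0.1, which is the floor of a design with 3 samples a group. With groups that do not overlap no other p was possible. The change of MSI1 was known when it was chosen, so its rank, interval and p-values describe these samples and are no independent support. In bulk RNA, a change in the share of cells that express a gene and a change in RNA per cell cannot be told apart.

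MSI2, the close relative that is found far beyond the nervous system, had signals of 12.38, 11.63 and 11.51 after MATR3 siRNA, against 12.62, 11.53 and 11.59 after control siRNA (TC17000705.hg.1). Its groups overlapped fully, and the replicate 1 sample was the highest in each. The pairs differed by -0.24, 0.10 and -0.08, with a mean of -0.07 ± 0.17 (SD, n = 3 pairs), an interval from -0.26 to 0.11 and adjusted p = 0.593 in limma blocked by array set. In the same pairs the MSI1 difference exceeded that of MSI2 by 1.47, 0.62 and 1.16, a mean of 1.08 ± 0.43, given with no test because MSI1 was chosen for its change. The relatives therefore parted in every pair.

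**Figure D2:**
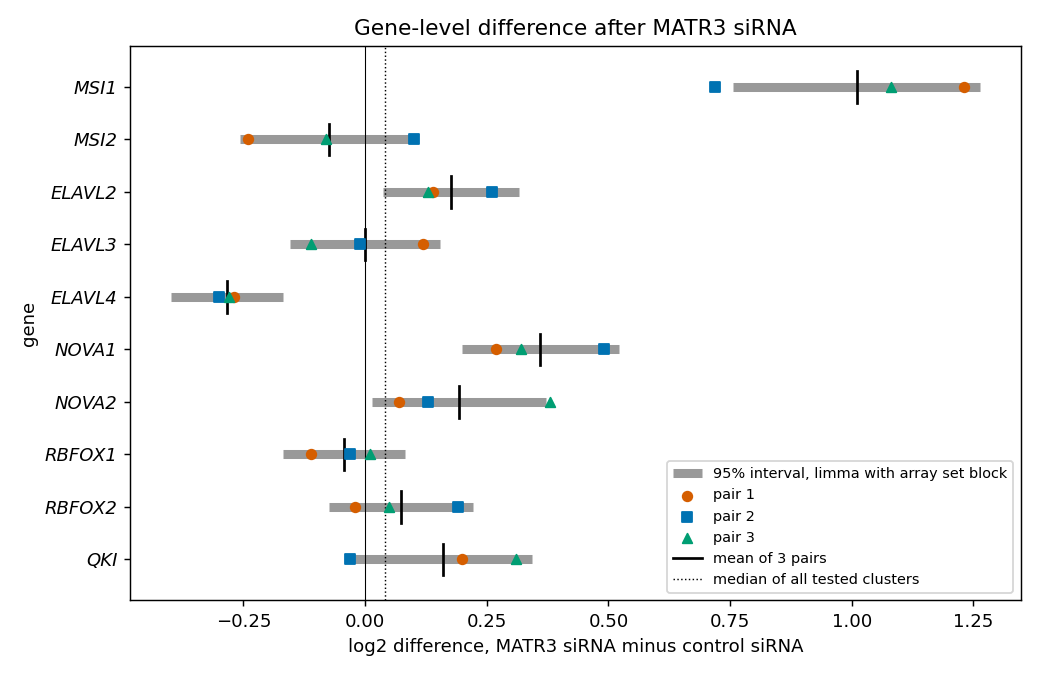
Log2 difference, MATR3 siRNA minus control siRNA (horizontal axis), for each gene, with points for the 3 pairs, a tick for their mean and a grey bar for the 95% interval of limma blocked by array set. MSI1 stands at 1.01, NOVA1 at 0.36 and ELAVL4 at -0.28, and the other 7 means lie between -0.07 and 0.19, beside a median of 0.04 over all tested clusters (dotted).

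The neuronal ELAVL proteins, relatives of the widespread ELAVL1 (HuR), bind AU-rich elements, stabilise growth-associated mRNAs and promote neuronal differentiation. ELAVL4 (HuD, TC01000614.hg.1) had signals of 13.39, 13.07 and 13.09 after MATR3 siRNA, against 13.66, 13.37 and 13.37 after control siRNA. Each MATR3 siRNA sample lay below the control sample of its number, while the groups overlapped, since the replicate 1 arrays were higher throughout. ELAVL4 fell by 0.27, 0.30 and 0.28 in the 3 pairs, which left 82.2% of the control signal on average. The mean was -0.28 ± 0.02 (SD, n = 3 pairs), with an interval from -0.40 to -0.17 and adjusted p = 0.0413 in limma blocked by array set. By the SD over the pairs it ranked 195th from the lowest of the 15209 clusters. The call was lost after median centring, at -0.36 and adjusted p = 0.0952, and with the replicate block, at adjusted p = 0.104.

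ELAVL2 (HuB, TC09000968.hg.1) had signals of 8.42, 7.67 and 7.54 after MATR3 siRNA, against 8.28, 7.41 and 7.41 after control siRNA. It was higher in all 3 pairs, by 0.14, 0.26 and 0.13, as were 26.9% of the tested clusters. The mean of 0.18 ± 0.07 (SD, n = 3 pairs) had an interval from 0.04 to 0.32 and did not pass, at adjusted p = 0.143. ELAVL3 (HuC, TC19001185.hg.1) held 13.71, 13.48 and 13.48 after MATR3 siRNA, against 13.59, 13.49 and 13.59 after control siRNA. Its means were equal at 13.56, the pairs pointed both ways, at 0.12, -0.01 and -0.11, and the interval ran from -0.15 to 0.15. Within the family the pair difference of ELAVL2 exceeded that of ELAVL4 by 0.41, 0.56 and 0.41, and that of ELAVL3 exceeded that of ELAVL4 by 0.39, 0.29 and 0.17. ELAVL4 thus lay below both relatives in each pair. ELAVL1, named as their relative outside the naming rule, differed by 0.06 ± 0.16.

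NOVA1 and NOVA2 are splicing regulators of the brain and were found as targets of antibodies in a paraneoplastic movement disorder. NOVA1 (TC14000988.hg.1) had signals of 7.97, 7.34 and 7.33 after MATR3 siRNA, against 7.70, 6.85 and 7.01 after control siRNA. It rose by 0.27, 0.49 and 0.32 in the 3 pairs, while the groups overlapped, again with replicate 1 highest in each. The mean of 0.36 ± 0.12 (SD, n = 3 pairs) is a fold of 1.28, with an interval from 0.20 to 0.52 and adjusted p = 0.0481. This call is the weakest of the 3: quantile normalization ended it (0.33, adjusted p = 0.0694), as did centring on array medians (0.28, adjusted p = 0.149) and the replicate block (adjusted p = 0.104), and 1 control sample lay under the brightest background probe set.

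NOVA2 (TC19001639.hg.1) had signals of 7.94, 6.97 and 7.11 after MATR3 siRNA, against 7.87, 6.84 and 6.73 after control siRNA, with 2 control samples under that background level. It was higher by 0.07, 0.13 and 0.38, a mean of 0.19 ± 0.16 (SD, n = 3 pairs), and did not pass, at adjusted p = 0.183. NOVA1 exceeded NOVA2 by 0.20 and 0.36 in pairs 1 and 2 but not in pair 3, at -0.06, so the relatives did not part beyond the spread of the pairs.

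RBFOX proteins bind GCAUG elements beside alternative exons of nerve and muscle. RBFOX2 (TC22000699.hg.1) had signals of 12.33, 11.46 and 11.35 after MATR3 siRNA, against 12.35, 11.27 and 11.30 after control siRNA. The pairs differed by -0.02, 0.19 and 0.05, a mean of 0.07 ± 0.11 (SD, n = 3 pairs), with an interval from -0.08 to 0.22. RBFOX1, the neuronal and muscle relative, had 5.10, 4.92 and 4.95 after MATR3 siRNA, against 5.21, 4.95 and 4.94 after control siRNA (TC16000141.hg.1). All 6 of these values lie under the brightest background probe set, so its mean of -0.04 ± 0.06 was not measured above that level. They lie above the background medians of 3.49 to 3.81 per array. RBFOX3, the antigen of the NeuN antibody and outside the naming rule, differed by 0.04 ± 0.02 at an equally low signal, a mean of 4.99 after MATR3 siRNA and 4.95 after control siRNA.

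Quaking, a STAR protein of glia and many other cells, regulates splicing, mRNA stability and the formation of circular RNA. QKI (TC06001165.hg.1) had signals of 10.09, 8.84 and 9.02 after MATR3 siRNA, against 9.89, 8.87 and 8.71 after control siRNA. The pairs differed by 0.20, -0.03 and 0.31, a mean of 0.16 ± 0.17 (SD, n = 3 pairs). The interval ran from -0.02 to 0.34, and adjusted p was 0.260. Replicate 1 exceeded the other samples of its group by more than 1 log2 unit in both groups, a gap wider than any pair difference of QKI.

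The exon-level table gives the same arrays as separate probe sets for exon stretches (identifiers with PSR) and for exon junctions (JUC). Of the 359 probe sets of the 10 genes, 252 had a mean at or above the median of all probe sets and were tested among 370991. In limma 0 passed, with no block or with the array set as a block, beside a percentage of 0 over all tested probe sets. On simulated data with a set spread, equal for all probe sets, the fit with no block recovered 0% of 200 changes of 1 log2 unit. With the array set block it recovered 100%. The real probe sets differ widely in spread, so the recovery with the block need not hold for them. Neither the 0 with no block nor the 0 with the block can thus show that no probe set changed. The lowest adjusted p among the 252 was 0.262 with the block, and 46 had an unadjusted p under 0.05. The values below are therefore a description of how each gene's change was spread over its probe sets.

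**Figure D3:**
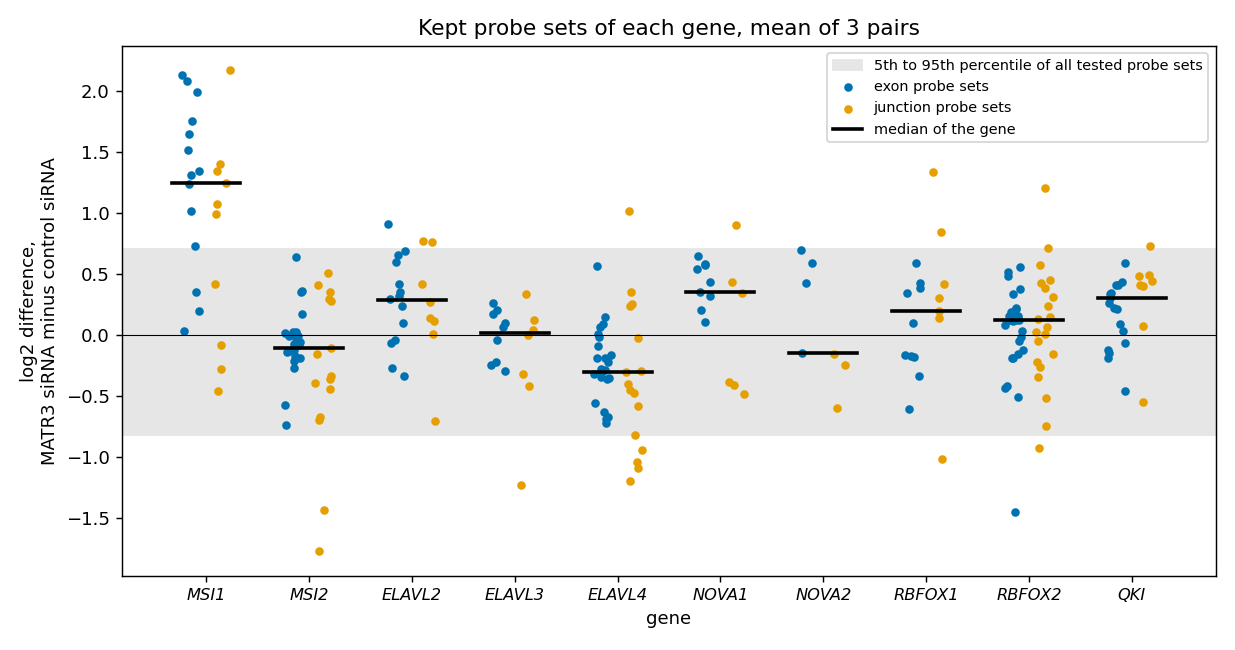
Log2 difference, MATR3 siRNA minus control siRNA (vertical axis), of each kept exon probe set (blue) and junction probe set (orange) of the 10 genes, as means of 3 pairs, with a bar at the median of each gene. The grey band holds the 5th to 95th percentile of all tested probe sets, -0.81 to 0.70, and is a guide to single points, not to medians. The MSI1 median stands at 1.24 and the other 9 medians run from -0.30 to 0.35.

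MSI1 was higher through most of its probe sets. Of 32, 24 were kept, and their median difference was 1.24, beside 0.003 over all tested probe sets. In single pairs the medians were 1.40, 0.83 and 1.28. The groups did not overlap upward in 15 of the 24, or 62.5%, beside 5.71% of all tested probe sets, and downward in 0, beside 2.95%. Likewise 15 of the 24 were at least 2-fold higher, beside 1.57% of all, and 0 at least 2-fold lower, beside 2.75%. These probe sets share the arrays of the gene-level change that was known when MSI1 was chosen. High shares follow from that change and are no separate support for it.

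The 14 kept exon probe sets of MSI1 had a median difference of 1.33 and ran from 0.03 to 2.13, and 10 of them were at least 2-fold higher. PSR12026840.hg.1 held 13.26, 12.31 and 12.17 after MATR3 siRNA, against 11.37, 10.11 and 10.02 after control siRNA, a difference of 2.08 ± 0.17 (SD, n = 3 pairs). PSR12026845.hg.1 held 12.59, 12.88 and 12.45 after MATR3 siRNA, against 10.88, 11.12 and 10.65 after control siRNA, and differed by 1.76 ± 0.05. Both show groups more than 1 log2 unit apart in each pair.

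Before PSR12026840.hg.1 in the order of kept identifiers lay PSR12026837.hg.1, with 14.51, 14.12 and 14.36 after MATR3 siRNA, against 14.23, 14.06 and 14.11 after control siRNA. It differed by 0.20 ± 0.12 (SD, n = 3 pairs), and its neighbour PSR12026836.hg.1 by 0.03 ± 0.25. The groups of PSR12026837.hg.1 overlapped, and its 6 values span 0.45. The last exon probe set in that order, PSR12026851.hg.1, differed by 0.36 ± 0.41. These 5 exon probe sets, like JUC12015073.hg.1 and PSR01010255.hg.1 of ELAVL4, were singled out after their values were seen, and which exons any of them cover was not analysed here.

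**Figure D4:**
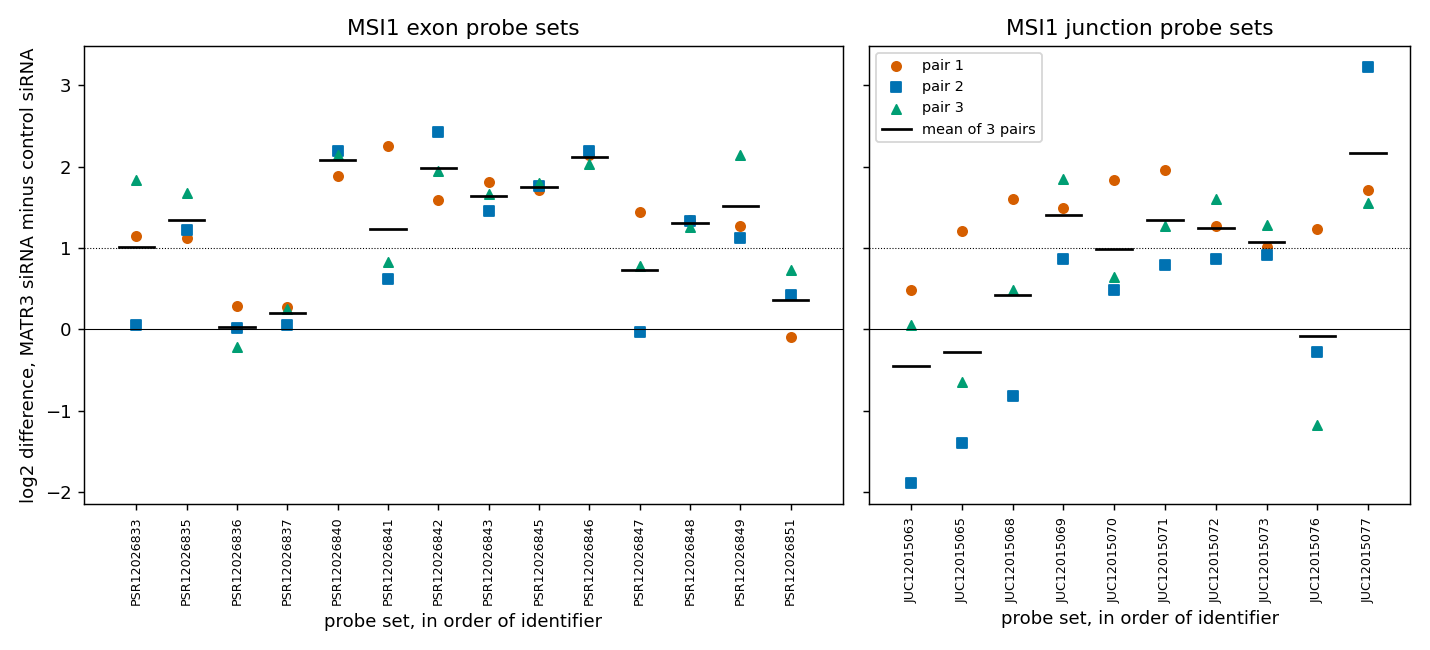
Log2 difference, MATR3 siRNA minus control siRNA (vertical axis), for the 14 kept exon probe sets (left) and 10 kept junction probe sets (right) of MSI1 in order of identifier, with points for the 3 pairs and a bar for their mean; the dotted line marks a 2-fold rise. PSR12026836 and PSR12026837 lie at 0.03 and 0.20 between neighbours above 1, and the junction probe set with the lowest mean, JUC12015063, has pairs that lie far apart.

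Junction probe sets of MSI1 spread more between pairs. Of the 10 kept, 5 were at least 2-fold higher and 3 had means under 0, and the means ran from -0.45 to 2.17. JUC12015073.hg.1 held 15.29, 14.71 and 15.18 after MATR3 siRNA, against 14.27, 13.80 and 13.90 after control siRNA, and differed by 1.07 ± 0.19 (SD, n = 3 pairs). The lowest, JUC12015063.hg.1, held 8.62, 6.72 and 7.80 after MATR3 siRNA, against 8.14, 8.61 and 7.75 after control siRNA, and its mean of -0.45 had an SD of 1.26. That SD is wider than the mean, so its direction is not set by these samples.

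The splicing index, a probe set's log2 value minus the mean of its gene's kept probe sets in the same sample, sets a probe set against the rest of its own gene. Over 360570 probe sets of genes with at least 5 kept probe sets, limma called 0 with no block and 0 with the array set as a block, so 0 of the 252 of these genes passed, beside a percentage of 0. The lowest adjusted p among them was 0.536 with the block, with 36 at an unadjusted p under 0.05. In the simulation the index fit recovered 0% of the changes with no block and 99.5% with the array set block. The simulated spread was again equal for all probe sets, so neither 0 of the index can show that no probe set changed. For MSI1 the index differences ran from -1.50 ± 0.98 in JUC12015063.hg.1 to 1.12 ± 1.19 in JUC12015077.hg.1 (SD, n = 3 pairs). At the high end the SD exceeds the difference. The index of PSR12026837.hg.1 differed by -0.85 ± 0.19 and that of PSR12026840.hg.1 by 1.03 ± 0.46, each with groups that did not overlap. In all, the groups did not overlap upward in 2 and downward in 6 of the 24 MSI1 probe sets, beside 4.86% and 4.46% of all probe sets tested on the index. The index subtracts a gene mean that was itself higher after MATR3 siRNA, so an MSI1 probe set that changed little scores below 0. These counts therefore do not show a change of single exons.

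ELAVL4 was lower in most of its probe sets, with a median of -0.30 over the 39 kept of 40, and 30 of the 39 lay under 0. The groups did not overlap downward in 8, or 20.5%, beside 2.95% of all. These probe sets share the arrays in which the gene fell, so that percentage is no separate support for the fall. A junction probe set went the other way: JUC01005277.hg.1 held 13.67, 13.22 and 13.40 after MATR3 siRNA, against 12.88, 12.19 and 12.16 after control siRNA. Its groups did not overlap, and it differed by 1.02 ± 0.23 (SD, n = 3 pairs), against a gene that fell. On the splicing index this was the highest of ELAVL4, at 1.31 ± 0.28, followed by the exon probe set PSR01010255.hg.1 at 0.85 ± 0.34. The lowest, JUC01005278.hg.1, held 11.80, 11.21 and 10.72 after MATR3 siRNA, against 11.97, 12.88 and 12.45 after control siRNA. Its groups also lay apart, in the other direction. Its index differed by -0.90 ± 0.83, a spread nearly as wide as the difference. JUC01005277.hg.1 and JUC01005278.hg.1 have consecutive identifiers and differ in opposite directions, and their adjusted p on the index was 0.536 each in limma blocked by array set.

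MSI2 had a median of -0.10 over 38 kept probe sets, with 26 under 0. Its index was lowest in JUC17005008.hg.1, at -1.62 ± 1.94 (SD, n = 3 pairs), and highest in PSR17009223.hg.1, at 0.79 ± 0.73, and in each of these pair 1 had the opposite sign to pairs 2 and 3. ELAVL2 had a median of 0.29 over 22 kept probe sets. Its exon probe set PSR09012851.hg.1 held 8.46, 8.74 and 8.89 after MATR3 siRNA, against 8.04, 7.49 and 7.82 after control siRNA, with groups apart, and its index differed by 0.66 ± 0.33. The lowest index of ELAVL2, in JUC09006992.hg.1, was -0.96 ± 0.84.

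ELAVL3 kept all 16 of its probe sets, with a median of 0.02. Its index was lowest in JUC19009630.hg.1, which held 9.18, 8.26 and 6.74 after MATR3 siRNA, against 9.39, 9.12 and 9.34 after control siRNA. The index difference of -1.13 ± 1.13 came mostly from replicate 3, and the highest index, in JUC19009631.hg.1, was 0.43 ± 0.60. NOVA1 had a median of 0.35 over 15 kept probe sets, made of 0.43 over its 9 exon probe sets and -0.02 over its 6 junction probe sets, so the kinds differ. The exon probe sets had medians of 0.39 and 0.52 in pairs 1 and 2 and of -0.02 in pair 3. Its index ran from -0.76 ± 1.09 in JUC14005642.hg.1 to 0.62 ± 1.04 in JUC14005639.hg.1. NOVA2 kept 7 of 9, and their median of -0.15 is opposite in sign to its gene-level mean. Its 4 exon probe sets had a median of 0.51 and its 3 junction probe sets one of -0.25. The index of NOVA2 was lowest in JUC19012761.hg.1, at -0.68 ± 0.52, and highest in PSR19022372.hg.1, at 0.61 ± 0.80.

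RBFOX2, a gene with many alternative starts and exons, kept 49 of 59 probe sets with a median of 0.13. JUC22005088.hg.1 held 6.83, 6.62 and 6.49 after MATR3 siRNA, against 5.59, 6.14 and 4.60 after control siRNA, and its index, the highest of the gene, differed by 1.16 ± 0.73 (SD, n = 3 pairs). Its control mean lies under the filter, a median of 5.995, which it passed only through its MATR3 siRNA samples. This difference is therefore no support for a change. The lowest index, in PSR22012281.hg.1, was -1.49 ± 1.68, where replicate 1 went the other way from replicates 2 and 3: 16.16, 12.90 and 13.19 after MATR3 siRNA, against 15.81, 15.87 and 14.91 after control siRNA. RBFOX1 kept only 17 of 73. Its index was highest in JUC16001127.hg.1, at 1.18 ± 0.52, with 9.13, 8.86 and 8.69 after MATR3 siRNA, against 8.17, 7.71 and 6.79 after control siRNA. These groups did not overlap, although the RBFOX1 cluster itself lies under the brightest background probe set. The lowest index of RBFOX1, in JUC16001124.hg.1, was -1.17 ± 1.36. QKI kept 25 of 29 with a median of 0.30, and its index was lowest in JUC06006917.hg.1, at -0.75 ± 0.35, and highest in JUC06006924.hg.1, at 0.52 ± 0.56.

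A list of other neuronal or tissue-regulated RNA-binding proteins gave 2 calls. Of 46 listed genes, 42 have a cluster with 1 symbol and 35 were tested. In limma blocked by array set 1 rose, 1 fell and 33 did not pass, beside 2.08% higher and 1.41% lower over all tested clusters, and 0 passed with no block. The list median was 0.02, beside 0.04 over all tested clusters. MBNL3, of the muscleblind splicing factors, rose by 0.35 ± 0.05 (SD, n = 3 pairs), at 9.13, 8.19 and 8.29 after MATR3 siRNA, against 8.82, 7.86 and 7.88 after control siRNA. CELF4, a regulator of neuronal mRNA, fell, at 7.95, 7.11 and 7.25 after MATR3 siRNA, against 8.27, 7.65 and 7.61 after control siRNA, a mean of -0.41 ± 0.12. For both the groups overlapped and every pair pointed one way. Their adjusted p was 0.0361 for MBNL3 and 0.0372 for CELF4, and after median centring neither passed, at adjusted p = 0.180 for MBNL3 and 0.0704 for CELF4.

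**Figure D5:**
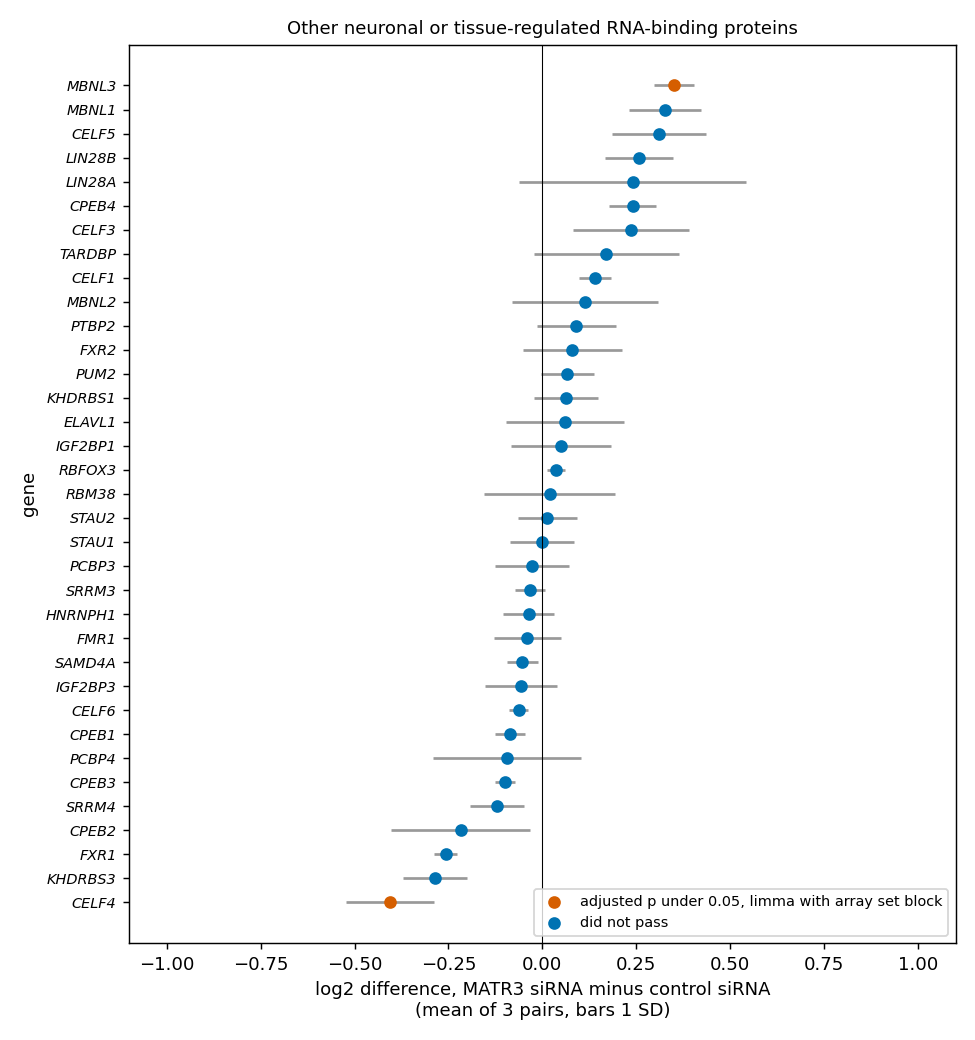
Log2 difference, MATR3 siRNA minus control siRNA (horizontal axis), of the 35 tested clusters of other RNA-binding protein genes, as means of 3 pairs with bars of 1 SD. Orange marks MBNL3 at 0.35 and CELF4 at -0.41, which passed in limma blocked by array set, and all the means lie between -0.41 and 0.35.

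Another list held genes that Musashi proteins are known to act on and the Notch pathway that NUMB restrains. Of 29 listed genes 23 were tested, of which 1 rose, 0 fell and 22 did not pass in limma blocked by array set, beside 2.08% higher and 1.41% lower over all tested clusters. The median was 0.03, beside 0.04 over all tested clusters. The riser was CDKN1A, the cell cycle inhibitor p21, at 9.21, 8.78 and 8.83 after MATR3 siRNA, against 8.68, 8.26 and 8.14 after control siRNA, a mean of 0.58 ± 0.10 (SD, n = 3 pairs) with adjusted p = 0.0199. CDKN1A is also a target of p53. NUMB, the Notch antagonist whose mRNA Musashi 1 binds, held 10.08, 9.64 and 9.73 after MATR3 siRNA, against 10.20, 9.61 and 9.55 after control siRNA. Its mean of 0.03 ± 0.15 lies within the spread of the pairs, and NUMB was named after its value was seen. Translation of these mRNAs was not measured.

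The clusters most like MSI1 were found by Pearson's r over the 6 arrays after each array set was centred on its own mean, among 701 others with an SD of at least 0.25. They were ANLN, a cytokinesis protein, at r = 0.9981, SGCE, a sarcoglycan, at 0.9976, EDA2R, a receptor of the tumour necrosis factor family, at 0.9973, LUM, a matrix proteoglycan, at 0.9960, and CMAHP, a pseudogene, at 0.9956. All values of LUM and CMAHP lie under the brightest background probe set. These correlations share the same 6 arrays, are the highest of the 701 and are given with no p. Such centring leaves largely the difference between the groups. A cluster that was higher in a like way thus scores a high r, whether or not it is regulated with MSI1. The mean differences of the 5 ran from 0.46 ± 0.11 in SGCE to 0.81 ± 0.27 in EDA2R (SD, n = 3 pairs).

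Some markers of cell states were called as well, beside 2.08% higher and 1.41% lower over all tested clusters. Of 12 mesenchymal, Schwann or fibroblast markers 7 were tested, of which 3 rose (LUM by 0.67 ± 0.18, VIM by 0.37 ± 0.14 and FN1 by 0.36 ± 0.09, SD, n = 3 pairs), 0 fell and 4 did not pass. All 6 LUM values lie under the brightest background probe set, so its rise was not measured above that level. They lie above the background medians of 3.49 to 3.81 per array. The summed log2 level of the 7 was 48.8 to 51.5 after MATR3 siRNA and 46.7 to 50.2 after control siRNA. Of the 10 tested sympathoadrenal markers 2 rose, ISL1 by 0.54 ± 0.19 and STMN2 by 0.37 ± 0.10, and 3 fell, DBH at -0.84 ± 0.21, DDC at -0.63 ± 0.11 and ELAVL4 itself, and 5 did not pass. Their summed level was 125.0 to 131.8 after MATR3 siRNA and 128.3 to 132.4 after control siRNA. Both sums are ranges over the samples of a group without regard to pairs. By pairs, the median difference was 0.31 over the 7 mesenchymal, Schwann or fibroblast markers and -0.27 over the 10 sympathoadrenal markers. Over all tested clusters it was 0.04. The 0.31 is the value of COL1A2, at 0.31 ± 0.32. Of the 7, LUM, S100B, COL1A2 and COL1A1 lie under the brightest background probe set, at means of 6.23, 5.31, 5.04 and 4.97. In control samples COL1A2 and COL1A1 averaged 4.89 and 4.90, under the filter median of 4.945. The median of 0.31 was thus not measured above background. With arrays centred on their medians, LUM, VIM, FN1, ISL1 and STMN2 no longer passed, at adjusted p = 0.0504, 0.231, 0.199, 0.0955 and 0.228, whereas DBH and DDC did. The defining Schwann and glial markers SOX10, OLIG2, MBP and AQP4 averaged 4.90, 4.44, 4.22 and 4.44 after MATR3 siRNA, against 4.88, 4.38, 4.20 and 4.44 in control samples, all under the filter on low signals. GFAP averaged 5.02 after MATR3 siRNA, against 4.96 in control samples, and S100B 5.26, against 5.36. The part of these markers in the differences of MSI1, NOVA1 and ELAVL4 was not tested.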

How the data were processed

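Per the labels, biotinylated cDNA from total RNA of SH-SY5Y cells was hybridised to Affymetrix arrays. The deposited values are log2 signals which, per the submitters' processing notes, the authors made with Affymetrix Expression Console and RMA; versions, order of steps and genome build are not given in the sources used here, so no coordinates are printed. The gene-level and exon-level tables summarise the same 6 arrays and were not pooled. The 2 groups hold 3 samples each. Arrays give no read depth, so precision is set by how many arrays there are. Probe names were taken from GEO's platform table, with symbols brought up to date by identifier or by older symbol (RefSeq, GRCh38.p14, for names only). Features with several symbols were not named, except the MATR3 cluster.

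Tests used limma 3.58.1 (lmFit and eBayes) in R 4.3.3, with data.table (version 1.17.8), on unscaled values, and the scripts were checked on simulated data. The fixed model has no block. Blocks for replicate number and array set, other scalings, filters and sets of tested clusters, array weights and leaving out each sample were alternatives. Same-numbered samples deviated together from their group means (r = 0.752, 0.426 and 0.613 across tested clusters), each over 0.1. They were treated as pairs. The array set shift is common to both groups and enters all these deviations, since each group mean includes the array that stands apart. It can thus raise all these correlations by itself. Samples of differing number were not compared in this way. The check therefore cannot show that samples within an array set are matched, and their pairing is by number alone. The MATR3 cluster was fitted with the tested clusters.

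The genes, lists, array set and alternatives were chosen with earlier results of these data known. All 10 genes are named, with the highest and lowest splicing index probe set of each; in each list up to 4 called members, or else the 2 brightest; and the 5 clusters most like MSI1. Figures used Python 3.11.15 and matplotlib 3.10.9.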

Additional observations from a re-analysis of the deposited data

How the results depend on the processing

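The count of called clusters, 0 with no block, was 8 with the replicate block, 530 with the array set block (316 higher, 214 lower) and 1761 with array weights. Combined with the array set block it was 385 after quantile normalization (170 higher, 215 lower), 205 after median centring (58 higher, 147 lower), 124 with no filter, 973 with the 75th percentile filter, 1 with all kept clusters tested and 3275 with array weights. Leaving out 1 sample gave 0 with no block and 0 to 21 with the array set block, where 21 came without MATR3 siRNA replicate 2.

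Of the 10 genes, 3 passed with the array set block. In combination with it 2 passed after quantile normalization, 1 (MSI1) after median centring, 1 (MSI1) with no filter, 3 with the 75th percentile filter, 4 with array weights, which added NOVA2 at 0.28, and 0 with all kept clusters tested. Array weights with no block gave 3. Leaving out 1 sample gave 0 to 1 with the array set block, where the 1 was MSI1 without MATR3 siRNA replicate 2 (adjusted p = 0.0463), so ELAVL4 and NOVA1 passed in none of these 6.

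MSI1 was higher under every alternative run. Its value passed at 1.01 with the array set block, there also with no filter or the 75th percentile filter, at 0.97 after quantile normalization, 0.93 after median centring and 1.04 with array weights, and at 0.86 with array weights and no block. Leaving out 1 sample gave 0.85 to 1.15 with no block and 0.90 to 1.12 with the array set block. In replicates 2 and 3 alone it was 0.90, at adjusted p = 0.0672.

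The splicing index count of 0 became 1 with the replicate block and ran from 0 to 411 when 1 sample was left out with no block, where 411 came without MATR3 siRNA replicate 1; the genes described here had 0 in each, and exon-level counts were 0 throughout. The sign turned for MSI2 with array weights (0.042). With no block, leaving out 1 sample turned further signs: MSI2 ran from -0.34 to 0.28, with 0.03 and 0.09 without MATR3 siRNA replicates 2 and 3. ELAVL2 ran from -0.10 to 0.47, NOVA2 from -0.11 to 0.56, RBFOX1 up to 0.045, RBFOX2 from -0.24 to 0.43 and QKI from -0.23 to 0.53. In these, the ends below 0 came without MATR3 siRNA replicate 1 and the upper ends without control siRNA replicate 1. Without control siRNA replicate 3, NOVA2 was -0.015, RBFOX2 -0.10 and QKI -0.06, and RBFOX2 was -0.11 without control siRNA replicate 2. Among called genes, NOVA1 ran from 0.15 to 0.62 and ELAVL4 from -0.39 to -0.19 with no block, the lower end of each without MATR3 siRNA replicate 1 and the upper end without control siRNA replicate 1. With the array set block MSI2 was 0.01 without either replicate 1 sample. The causes were not tested. No gene had another cluster with its symbol to try. Apart from the calls given here and beside the results, the replicate block changed no call of these genes.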

Other observations

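Among mRNAs known to bind neuronal ELAVL proteins, 15 of 18 listed genes were tested. Of these 3 rose, 2 fell and 10 did not pass in limma blocked by array set, beside 2.08% higher and 1.41% lower over all tested clusters, and 0 passed with no block. The median was 0.09, beside 0.04 over all tested clusters. VEGFA, the angiogenic growth factor, fell, at 9.24, 8.22 and 8.23 after MATR3 siRNA, against 9.77, 9.05 and 9.03 after control siRNA, a mean of -0.72 ± 0.17 (SD, n = 3 pairs). SLC2A1, a glucose transporter, fell, with a mean of -0.47 ± 0.10. CDKN1A rose by 0.58 ± 0.10 and SATB1, a chromatin organiser, by 0.48 ± 0.05. The third riser, CCND1, a cyclin of the early cell cycle and outside the naming rule, rose by 0.28 ± 0.06, with adjusted p = 0.0471, and did not pass after quantile normalization (adjusted p = 0.246) or median centring (adjusted p = 0.328). After median centring SATB1 did not pass (adjusted p = 0.0613), whereas VEGFA, SLC2A1 and CDKN1A did.

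Of 16 listed neural progenitor genes 10 were tested, of which 1 rose (VIM, an intermediate filament protein) and 0 fell in limma blocked by array set, beside the same percentages. VIM is also counted among the mesenchymal markers. The median was -0.05. VIM was not called after quantile normalization (adjusted p = 0.0837) or median centring (adjusted p = 0.231). NES, the nestin filament of progenitors, held 10.66, 9.64 and 9.66 after MATR3 siRNA, against 10.81, 9.94 and 10.07 after control siRNA. SOX2, a factor of neural stem cells, held 5.44, 5.00 and 4.97 after MATR3 siRNA, against 5.41, 5.00 and 5.33 after control siRNA. All 6 SOX2 values lie under the brightest background probe set. NES and SOX2 were named after their values were seen.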
